A study of Homo sapiens with 15 samples.

Results

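Open chromatin inside the exons of protein-coding genes, away from promoters, was followed in a human kidney cell line with and without SETD2. Peaks on chromosomes 1 to 22 that shared at least 1 bp were merged across all 15 peak lists, and the 285511 merged regions with a peak in at least 2 libraries were kept. A region was counted as exonic if its midpoint lay in an exon of a GENCODE v44 protein-coding gene and more than 1 kb from every annotated transcription start. This gave 8026 exonic regions, 2.81% of all regions, in 5402 genes.

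The cells were RPTEC, a non-tumorigenic renal proximal tubule epithelial line immortalised with hTERT and kept under G418 selection for that transgene. WT is the parental line with intact SETD2. KO1 and KO2 are single-cell clones in which a CRISPR guide to exon 3 of SETD2 left frameshifts. Rescue1 and Rescue2 are single clones of knockout cells that received full-length SETD2 with a 3×FLAG tag by lentivirus and blasticidin selection, and the names of the deposited lists tie both to the KO2 clone. Each of the 5 groups had 3 ATAC-seq libraries, an assay in which Tn5 transposase cuts accessible DNA. The libraries of a clone are repeats of that clone, so p-values measure the spread between these libraries and not between independently made clones.

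SETD2 trimethylates lysine 36 of histone H3 (H3K36me3) behind elongating RNA polymerase II, and the mark is denser over the exons and the downstream parts of active genes than at promoters. In renal epithelium the gene is best known as a tumour suppressor of clear cell carcinoma. Exons seldom act as promoters, but accessible sites within them can hold binding sites of transcription factors on top of the protein code, and the last exon, which carries most of the 3′ untranslated sequence, is by far the longest exon of many genes.

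Coding sequences under some of the changed regions are shown here because they carry the exon and, in part, the motif letters discussed further on. Each line gives 81 bases of the hg38 plus strand around the strongest summit, wholly inside coding sequence. Capitals mark matches to the searched motifs on either strand, and a line without capitals held none.
FBXO38 exon 12, chr5:148417107-148417187: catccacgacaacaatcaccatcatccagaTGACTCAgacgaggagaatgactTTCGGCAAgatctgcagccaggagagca
MTO1 exon 8, chr6:73482123-73482203: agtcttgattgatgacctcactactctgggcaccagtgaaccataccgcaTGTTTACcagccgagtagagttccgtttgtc
PRDM8 exon 4, chr4:80202313-80202393: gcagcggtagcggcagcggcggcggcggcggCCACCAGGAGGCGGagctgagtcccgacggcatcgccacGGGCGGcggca
ADGRD1 exon 16, chr12:131104837-131104917: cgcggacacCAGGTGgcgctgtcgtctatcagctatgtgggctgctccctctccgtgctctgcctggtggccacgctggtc
ZFHX3 exon 10, chr16:72787578-72787658: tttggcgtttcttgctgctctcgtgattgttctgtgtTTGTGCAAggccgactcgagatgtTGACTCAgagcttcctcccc
TOPAZ1 exon 2, chr3:44242888-44242968: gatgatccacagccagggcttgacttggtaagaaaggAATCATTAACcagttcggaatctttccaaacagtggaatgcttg
BSN exon 5, chr3:49653064-49653144: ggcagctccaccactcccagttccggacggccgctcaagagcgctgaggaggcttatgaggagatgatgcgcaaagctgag
MUC16 exon 5, chr19:8935651-8935731: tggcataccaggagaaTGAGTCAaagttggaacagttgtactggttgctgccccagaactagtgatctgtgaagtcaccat
AHCTF1 exon 5, chr1:246907634-246907714: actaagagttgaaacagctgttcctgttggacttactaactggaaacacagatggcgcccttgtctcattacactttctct
WDR35 exon 8, chr2:19973600-19973680: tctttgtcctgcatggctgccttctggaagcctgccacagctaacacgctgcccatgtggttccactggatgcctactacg
TERT exon 15, chr5:1254396-1254476: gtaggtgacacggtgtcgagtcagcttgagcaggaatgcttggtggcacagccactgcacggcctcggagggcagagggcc
TERT exon 6, chr5:1278679-1278759: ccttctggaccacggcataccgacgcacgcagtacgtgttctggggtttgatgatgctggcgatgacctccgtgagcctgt
The windows of FBXO38, ZFHX3 and MUC16 held the AP-1 letters, that of MTO1 the FOX letters, that of ADGRD1 the E-box and that of TOPAZ1 the HNF1 letters.

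The lists held 191071 to 256644 peaks on chromosomes 1 to 22, and no read counts, so sequencing depth is unknown and the comparisons rest on whether a peak was called and on its rank within its own list. A region without a peak lay under the calling threshold and is not thereby shown to be closed. Checked against marker genes, 7 of 8 kidney epithelium genes (among them PAX8, PAX2, CDH16, EPCAM, KRT8 and KRT18, but not CDH1 with 4 libraries) had a promoter peak in all 15 libraries, whereas 4 of 8 proximal tubule genes (CUBN, AQP1, SLC34A1 and HNF4A) had one in none. Among other cell types, 5 of 6 leukocyte markers had a promoter peak in no library and CD14 had one in 15, 2 of 5 endothelial and 3 of 5 fibroblast markers had one in all 15. The frameshift in exon 3 cannot be checked from peak lists.

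By position on the Ensembl canonical transcript, 3745 exonic regions (46.7%) lay in the last exon and 1925 (24.0%) in an internal exon. A further 2249 (28.0%) lay in an exon that only another transcript of the gene contains, 75 in the exon of a single-exon gene and 32 in a first exon more than 1 kb from its start. By sequence class, 3263 regions (40.7%) lay in 3′ untranslated sequence, 2454 (30.6%) in coding sequence and 60 in 5′ untranslated sequence. Taken by the number of bases in which a midpoint could fall, internal exons held 121 regions per Mb and last exons 112. Introns held 109, sequence between genes 80.8 and promoters 235.

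Most genes contributed little. Exactly 1 exonic region was found in 3694 of the 5402 genes, and 5 or more in 75. The exonic regions were 235 bp wide at the median, as were intronic regions, against 351 bp at promoters. The internal exons that held a region had a median length of 163 bp against 123 bp over all internal exons. A midpoint falls more easily in a long exon, so a longer median is expected from the rule alone. A median of 66.5% of the bases of an internal-exon region were exonic. Position along the gene followed the last exon. Some 60.3% of exonic regions lay in the final 20% of the canonical transcript's length or past its end. Of the 1925 internal-exon regions 9.51% lay in the initial 20% and 27.8% in the final 20%. These are shares of regions and not densities, and the distance rule itself removes exons near the start. At the distance limit, the 215 regions in exons up to 100 bp inside it had a peak in 66.3% of libraries on average and the 205 up to 100 bp beyond it in 61.6%.

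Among the most occupied genes, SH3TC2, a peripheral nerve protein with SH3 and TPR domains, and MACF1, a giant linker of actin and microtubules, had 11 exonic regions each. In SH3TC2 all 11 lay in exons of other transcripts, and 10, 11 and 10 were occupied in the WT libraries against 8 to 9 in KO and 9 to 10 in rescue. DST, the dystonin cytolinker related to MACF1, had 9 regions, of which 4, 3 and 3 were occupied in WT, 5 to 8 in KO and 5 to 7 in rescue. NTPCR, a nucleoside triphosphatase, had 7, with 2 occupied in every WT library, 4 to 6 in KO and 4 to 6 in rescue. LARS2, the mitochondrial leucyl-tRNA synthetase, went the other way with 5 of 7 in each WT library, 3 to 5 in KO and 4 to 6 in rescue. C2CD3, CAPZB, LPP and NTRK2 had 7 each, XKR4 had 8, and TERT, described below, had 9.

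The percentile of a peak is its place, from 0 to 100, when the peaks of one library are ordered by fold enrichment at the summit. In an internal exon of PER3, a circadian clock repressor, the percentile was 99.2 to 99.95 in KO and 99.8 to 99.998 in rescue. In an internal exon of PCLO, a presynaptic scaffold, it was 98.8 to 99.6 in KO and 99.03 to 99.9 in rescue. Sites in other-transcript exons of KALRN, NDUFA12, PARP9 and MTHFD1 completed the 6 highest among regions with a peak in all 15 libraries, whose mean percentiles were 99.4 to 99.9.

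Occupancy of exonic regions was higher in KO than in WT. In WT 59.9%, 56.2% and 56.7% of the 8026 exonic regions had a peak, in KO 61.1% at the lowest, 65.4% at the median and 75.0% at the highest, and in rescue 62.1%, 66.4% and 76.0%. All 6 KO libraries thus lay above all 3 WT libraries, with means of 66.1% ± 4.77 (SD, n = 6) and 57.6% ± 2.004 (SD, n = 3), whereas KO and rescue overlapped over most of their ranges. Over all other regions the KO mean was 5.48 percentage points above the WT mean, with overlap of the groups, against 8.52 points in exonic regions. By class, the difference was 0.539 points at promoters, 5.41 in introns and 7.56 between genes, each with overlap. The exonic difference was thus close to that between genes. The regions were defined from 15 libraries of which only 3 were WT, so regions of every class entered more often through KO or rescue. WT occupancy is thereby lower in part by construction, and how much of the difference this makes up was not tested. The KO lists were on average longer than the WT lists. With each list shortened to its 150000 strongest peaks, the exonic difference was 2.97 points, still with no overlap.

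As a share of all regions with a peak in a library, exonic regions made up 2.66%, 2.69% and 2.70% in WT, 2.80% to 2.86% in KO and 2.77% to 2.89% in rescue. The KO libraries again all exceeded the WT libraries, by 0.136 points on average, and by 0.0834 points with 150000 peaks per list. Rescue did not return to the WT share in either clone. Rescue1 lay at 2.86% to 2.89% and Rescue2 at 2.77% to 2.78%, on opposite sides of the KO mean of 2.82%.

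Internal and last exons parted in rescue. Of the exonic regions with a peak, internal exons held 22.9% to 23.2% in WT and 22.5% to 23.3% in KO, which overlapped, and 23.6% to 24.0% in rescue. Every rescue library was above every KO library, with means of 23.8% ± 0.175 (SD, n = 6 in rescue) and 22.97% ± 0.354 (SD, n = 6 in KO). Last exons went the opposite way, with 47.1% to 47.9% in KO and 46.3% to 46.8% in rescue, again without overlap. Exons of other transcripts stayed at 27.9% to 28.5% in all 15 libraries. In absolute terms, the share of internal-exon regions with a peak was 63.4% in KO and 67.1% in rescue on average, with overlap, while that of last-exon regions was 67.4% in both groups.

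**Figure D1:**
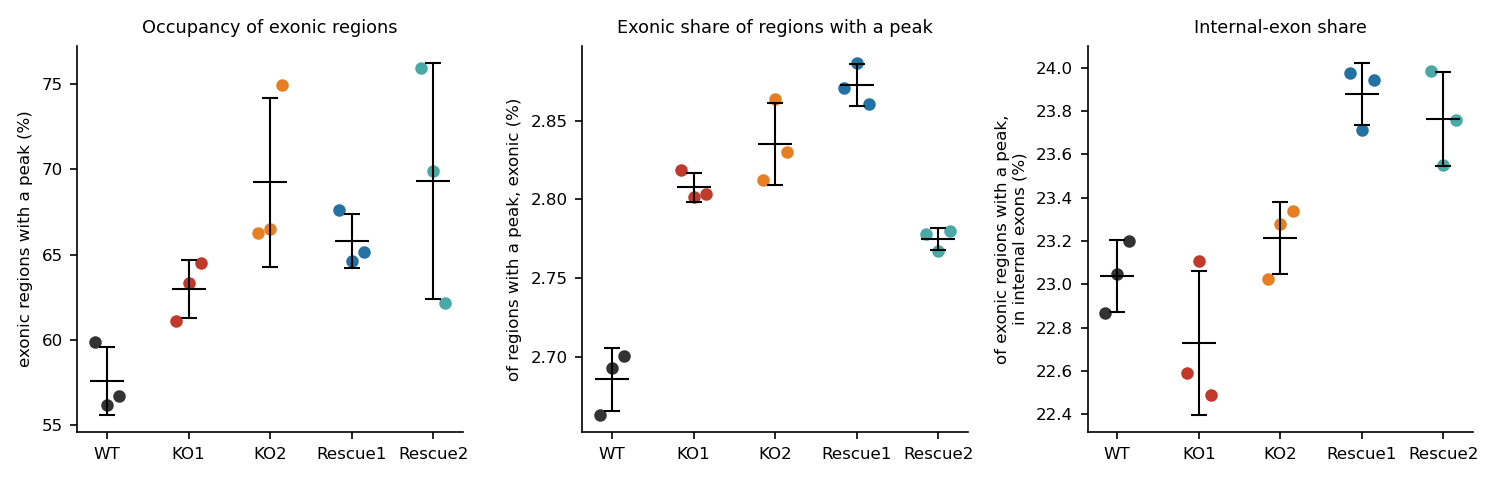
Each point is 1 library, and bars give the mean and SD of the 3 libraries of a group; the panels show the percent of exonic regions with a peak, the percent of regions with a peak that are exonic, and the percent of exonic regions with a peak that lie in internal exons. WT lies lowest in the first panel and in the second, and all rescue libraries (23.6% to 24.0%) lie above all KO libraries (22.5% to 23.3%) in the third.

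Regions that switched completely between WT and KO were then counted. A region was called gained if it had a peak in every library of one group and in none of the other, and lost if the reverse held. Between WT and KO, 440 exonic regions (5.48%) were gained and 172 (2.14%) lost, beside 4.77% and 2.49% of all 285511 regions. The gained share was 2.44% at promoters, 4.67% in introns and 5.78% between genes, so that exons lay between introns and intergenic sequence. The lost share was 1.97%, 2.66% and 2.55%.

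By exon position, internal exons had 108 gained regions (5.61%) and 53 lost (2.75%), last exons 187 (4.99%) and 71 (1.90%), and exons of other transcripts 140 (6.22%) and 41 (1.82%). With an exact Fisher's test per region, adjusted by the Benjamini-Hochberg method over all regions, no region passed, since 6 libraries against 3 allow a smallest p of 0.0119 (adjusted p = 0.164). At an unadjusted p under 0.05, 650 exonic regions were higher and 265 lower in KO, beside 6.93% and 3.86% of all regions. With the 150000 strongest peaks per list the gained regions numbered 290, or 5.13% of the exonic regions left beside 4.601% of all, and without WT replicate 2 the lost regions numbered 261.

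**Figure D2:**
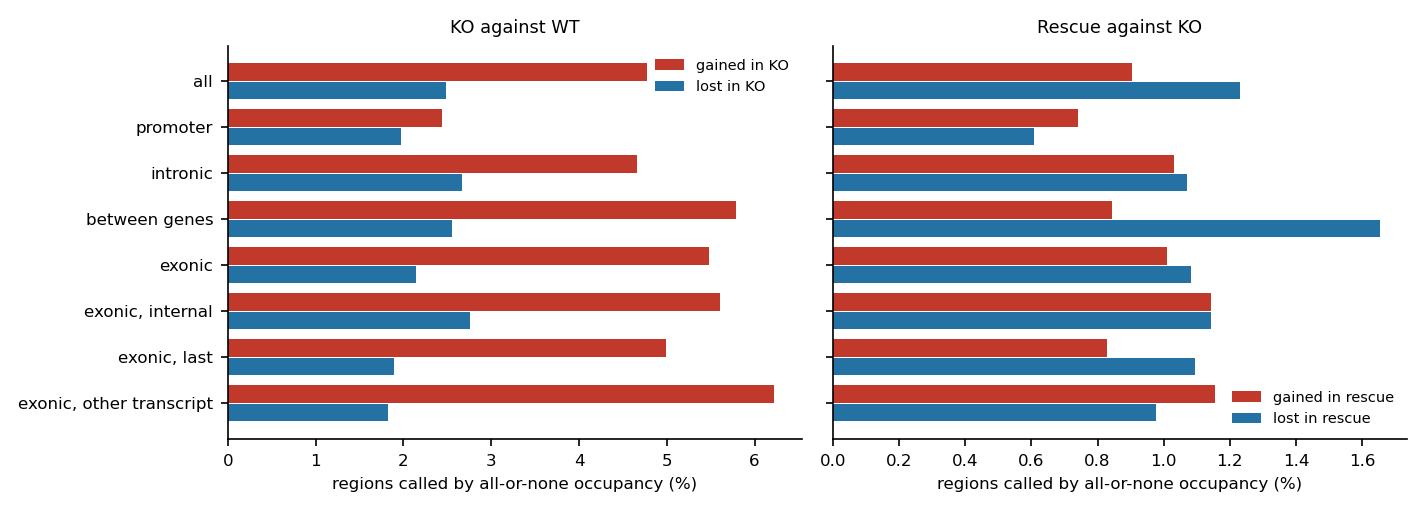
Percent of the regions of each class and exon position called gained or lost by all-or-none occupancy, for KO against WT on the left and rescue against KO on the right, where the horizontal scale is finer. Exonic regions were gained in KO at 5.48% and lost at 2.14%; in rescue both calls stayed near 1%.

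Many of the regions gained in KO were also open in the rescue clones. Of the 440, 211 had a peak in all 6 rescue libraries and 52 in none, which is 2.63% and 0.648% of the exonic regions beside 2.14% and 0.812% of all regions. The strongest of the 211 were sites in other-transcript exons of PTGR2, a prostaglandin reductase, RNF214, a RING finger protein, and ELMO1, a partner of DOCK proteins in Rac activation. In PTGR2 (chr14:73878471-73878839) no WT library had a peak, the KO percentile was 97.8 at the lowest, 99.3 at the median and 99.9 at the highest, and the rescue percentile was 97.9, 98.8 and 99.7. The region was therefore absent from the WT lists and among the strongest peaks of the other 12.

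Coding exons were among them too. The site in exon 8 of 12 of MTO1, a mitochondrial tRNA modification enzyme, whose sequence is shown above, lay at 87.3, 95.5 and 98.5 in KO and at 94.9, 98.4 and 99.6 in rescue (lowest, median, highest). The site in the last exon of CTR9, a subunit of the PAF1 elongation complex, lay at 91.8, 96.8 and 98.1 in KO and at 90.2, 93.7 and 97.5 in rescue. That in exon 12 of 22 of FBXO38, an F-box protein of ubiquitin ligases, lay at 78.1, 90.3 and 94.6 in KO and at 94.2, 95.9 and 98.0 in rescue. None of the 3 had a peak in WT, and the KO and rescue values overlapped for all 3, for FBXO38 only between 94.2 and 94.6.

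Of the 52 regions gained in KO and absent from all rescue libraries, the strongest lay in other-transcript exons of CREBRF, a regulator of CREB3 proteins, with KO percentiles of 86.0 to 97.6, and of AGBL1, a carboxypeptidase of the tubulin deglutamylase family, with 85.7 to 93.5. A site at exon 13 of CTNNA2, the neuronal alpha catenin, lay at 56.8 to 86.8. Only 10.9% of the bases of the AGBL1 region and 21.3% of those of the CTNNA2 region were exonic. The site in exon 4 of PRDM8, a PR-domain transcription factor, lay at 58.4 to 72.5, and its printed sequence holds the CTCF and SP/KLF letters. MDFIC2 and LRRIQ3 followed, with 50.1 to 72.8 and 29.4 to 90.4. With at least 50% of the region required under peaks, CTNNA2 and MDFIC2 kept a peak in 5 of 6 KO libraries and LRRIQ3 in 3 of 6.

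Losses were fewer. Of the 172 exonic regions lost in KO, 72 had a peak in no rescue library and 19 in all 6, or 0.897% and 0.237% beside 1.04% and 0.312% of all regions. The 72 became 110 without WT replicate 2 and 109 without WT replicate 3. In exon 16 of ADGRD1, an adhesion G protein-coupled receptor, the WT percentiles were 89.7, 96.0 and 94.5, with no peak in the other 12 libraries. In the last coding exon of ZFHX3, a zinc finger and homeobox transcription factor, they were 90.0, 83.2 and 83.3. In exon 2 of TOPAZ1, a germ cell gene, they were 84.5, 60.4 and 71.1. These sites were thus prominent in the parental line and under the calling threshold in all 4 clones. ZBTB45 (64.9 to 80.3), the endosomal kinesin KIF16B (60.1 to 78.4) and the aldo-keto reductase AKR1C1 (53.4 to 59.1) had the same pattern.

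Of the 19 lost regions that came back in all 6 rescue libraries, the strongest lay in the 3′ untranslated sequence of EIPR1, a partner of the EARP endosomal complex. It had WT percentiles of 60.2, 55.3 and 39.6, no peak in KO, and 77.9, 80.1 and 86.8 in rescue (lowest, median, highest). The long-chain fatty acid receptor FFAR1 lay at 51.5 to 62.4 in WT and 32.7 to 77.0 in rescue, and CROT, a peroxisomal carnitine acyltransferase, at 52.3 to 60.1 and 16.98 to 65.8. The coding site of BSN, the presynaptic protein bassoon, lay at 12.3 to 39.6 in WT and 23.3 to 73.8 in rescue. CEP72 and NLE1, a centrosomal and a ribosome assembly protein, completed the 6. Except for EIPR1, the WT values were inside the rescue range or overlapped it. With at least 50% of the region required under peaks, the percent of KO libraries with a peak minus that of WT was −33.3 at EIPR1 and NLE1. With the 150000 strongest peaks per list it was −66.7 at BSN and NLE1. These losses were then no longer all-or-none.

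Counted on its own, rescue against KO gained 81 exonic regions (1.01%) and lost 87 (1.08%), beside 0.906% and 1.23% of all regions. Internal exons had 22 of each call, last exons 31 gained and 41 lost. No region passed the exact Fisher's test per region after adjustment (smallest adjusted p = 0.101), and at an unadjusted p under 0.05, 219 exonic regions were higher and 218 lower in rescue, beside 2.49% and 2.78% of all. The comparison shares its KO libraries with the one before, so the regions called in both are given as counts only.

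The clones were also compared one by one. Against WT, KO1 gained 612 exonic regions and lost 341, beside 7.03% and 4.8% of all regions, and KO2 gained 775 and lost 234, beside 8.29% and 3.23%. Against WT, Rescue1 gained 661 and lost 272, beside 6.65% and 4.32%, and Rescue2 gained 666 and lost 192, beside 7.74% and 2.61%. All 4 clones, rescue included, thus held more gained than lost exonic regions relative to the parental line, and the same held over all regions. The exonic shares were 7.63% and 4.25% in KO1, 9.66% and 2.92% in KO2, 8.24% and 3.39% in Rescue1, and 8.30% and 2.39% in Rescue2. Against KO2, the clone to which both rescue clones are tied, Rescue1 gained 217 and lost 381, beside 2.35% and 4.95%, and Rescue2 gained 229 and lost 243, beside 3.05% and 2.93%. Between clones of one genotype, KO1 had 72 regions that KO2 lacked and lacked 228 that KO2 had, beside 1.02% and 2.52%, and Rescue1 had 71 that Rescue2 lacked and lacked 176, beside 0.731% and 2.45%. KO1 lists held 197778 to 209274 peaks and KO2 lists 213369 to 246615, and the part of list length in these counts was not tested.

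Regions with a peak in all 15 libraries allowed a graded measure. There were 2710 such exonic regions, 33.8% of the 8026, beside 35.8% of all regions and 52.5% of promoters, and the filter leaves out every region that was switched off in a library. Within each library the 102091 regions with a peak everywhere were ranked by fold enrichment at the summit, and the ranks were turned into normal scores, on which a value of 0 is the middle region and 1 is 1 standard deviation above it. A linear model fitted with limma across all of them then compared the groups. The measure is relative to the other regions of the library, and absolute accessibility was not compared.

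By fold enrichment, exonic regions as a class ranked slightly lower in KO than in WT, and higher in rescue. Their median percentile was 49.1, 48.7 and 48.6 in WT, 46.9 to 48.6 in KO and 50.2 to 51.6 in rescue, where 50 is the middle of all 102091 regions. WT and KO did not overlap, although by a narrow margin, and every rescue library was above every WT and every KO library. Ranked by −log10 p, the medians were 45.4 to 46.4 in WT and 44.9 to 46.6 in KO, which overlapped. Rescue was again above both, at 47.2 to 48.8. In the fit, 340 exonic regions (12.5%) were higher and 448 (16.5%) lower in KO than in WT at an adjusted p under 0.05, beside 12.4% and 12.4% of all regions. In rescue against KO 433 (15.98%) were higher and 269 (9.93%) lower, beside 12.2% and 11.8%. Ranked by −log10 p instead, KO against WT gave 418 higher and 402 lower, and by place among all peaks of the list 378 and 372, so the surplus of lower regions in KO rests on the ranking used. In rescue higher regions outnumbered lower ones under these rankings too, with 476 against 312 and 460 against 209.

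Internal exons ranked higher in rescue than in both other groups. Their median percentile was 53.0, 52.3 and 50.5 in WT, 52.4 to 54.8 in KO and 57.3 to 59.9 in rescue, with means of 53.3 ± 0.908 in KO and 58.7 ± 1.05 in rescue (SD over 6 libraries each). Rescue libraries were all above both other groups, while WT and KO overlapped. Of the 583 internal-exon regions 104 (17.8%) were higher in rescue than in KO and 52 (8.92%) lower, or 34 lower without KO2 replicate 2. Against WT, 78 were higher in KO and 90 lower. Last-exon regions stayed below the middle everywhere, at 48.5 to 48.8 in WT, 46.2 to 48.2 in KO and 47.6 to 49.0 in rescue. Of the 1341, 228 (17.002%) were lower in KO than in WT and 160 (11.9%) higher, and 209 were higher in rescue than in KO and 137 lower. Ranked by −log10 p, internal exons lay at 47.0 to 50.7 in KO and 50.6 to 52.3 in rescue, which just overlapped. WT lay below both under this ranking, at 46.1 to 46.9. Whether the difference in change between internal and last exons exceeds chance was not tested.

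**Figure D3:**
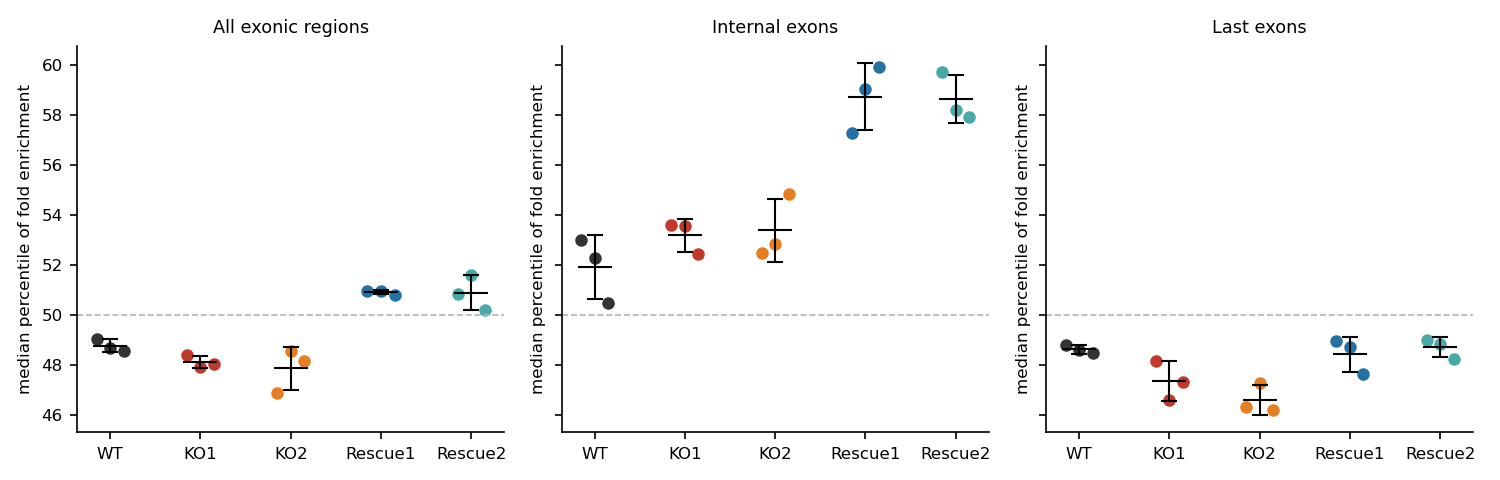
Median percentile of summit fold enrichment in each library, for all 2710 exonic regions with a peak everywhere, the 583 in internal exons and the 1341 in last exons; bars give mean and SD of 3 libraries and the dashed line is the middle of all regions. Internal-exon medians lie at 57.3 to 59.9 in rescue and at 52.4 to 54.8 in KO.

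By clone, 300 exonic regions were higher and 346 lower in KO1 than in WT (10.5% and 10.5% of all regions), and 312 and 360 in KO2 (11% and 9.85%). Rescue1 had 329 higher and 194 lower than KO (9.2% and 8.68%) and Rescue2 305 and 195 (8.74% and 7.58%). The surplus of higher exonic regions was therefore present in each rescue clone. KO1 and KO2 themselves differed in 20 higher and 51 lower (0.81% and 2.0%), and Rescue1 and Rescue2 in 24 and 33 (0.617% and 1.64%).

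Of the 788 exonic regions that changed between WT and KO, 258 changed the opposite way in rescue with the same sign in both KO clones, and 46 changed further in the same direction. The 258 were 77 that rose in KO and fell in rescue, or 22.6% of all that rose, and 181 that fell and then rose, or 40.4% of all that fell. Over all 102091 regions the same shares were 25.7% and 35.4%. Both comparisons share the KO libraries, so these shares are descriptions.

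The largest falls that were regained included the 3′ untranslated sequence of MAPK9 (JNK2), a stress-activated kinase. Its percentile was 86.6, 89.8 and 93.0 in WT, 1.62 at the lowest, 13.6 at the median and 29.5 at the highest in KO, and 90.9, 96.2 and 97.4 in rescue. KO was far below both other groups. The change was −2.50 ± 0.207 (SE) normal scores in KO against WT (limma, adjusted p = 3.45e-07) and 2.94 ± 0.169 in rescue against KO (adjusted p = 3.97e-08).

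Exon 5 of 84 of MUC16, the membrane mucin that carries the CA125 epitope, lay at 93.4, 91.2 and 92.9 in WT, 3.58, 20.5 and 34.3 in KO, and 33.6, 56.1 and 76.9 in rescue. Rescue recovered part of the WT level, with a change of −2.36 ± 0.192 in KO (adjusted p = 3.07e-07) and 1.05 ± 0.157 in rescue (adjusted p = 0.000140). Rescue1 lay at 33.6 to 47.2 and Rescue2 at 65.0 to 76.9, a difference of −0.874 ± 0.222 (adjusted p = 0.0474). The AP-1 letters of this site are in the window printed above.

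EHMT1, a histone H3 lysine 9 methyltransferase, held a site in an exon of another transcript with percentiles of 81.2, 81.4 and 83.9 in WT. In KO it spanned 1.45, 11.9 and 56.2 and in rescue 77.5, 89.9 and 93.0. KO1 and KO2 differed here by −1.66 ± 0.226 (limma, adjusted p = 0.000793), with KO1 the lower. In AHCTF1, the nucleoporin ELYS, exon 5 lay at 83.3, 91.1 and 68.7 in WT, 3.22 to 28.9 in KO and 36.6 to 73.8 in rescue, changes of −2.08 ± 0.273 (adjusted p = 3.10e-05) and 1.42 ± 0.223 (adjusted p = 0.000212). GJA4, the gap junction protein connexin 37, lay at 48.2 to 83.2 in WT, 3.22 to 15.8 in KO and 69.6 to 94.9 in rescue. ARHGEF1, a guanine nucleotide exchange factor, lay at 36.7 to 44.2 in WT, 0.611 to 4.48 in KO and 41.2 to 59.6 in rescue. In all 6 of these genes KO lay below WT and below rescue with no overlap, save for the highest MUC16 and lowest MUC16 rescue values, 34.3 and 33.6.

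In the opposite direction, exon 8 of WDR35, an intraflagellar transport protein of cilia, rose from 58.9, 16.4 and 35.4 in WT to 89.6, 99.1 and 99.9 in KO (lowest, median, highest) and stood at 56.3, 82.6 and 92.9 in rescue. The changes were 2.54 ± 0.300 (limma, adjusted p = 1.11e-05) and −1.28 ± 0.245 (adjusted p = 0.00115). C3AR1, the receptor for complement fragment C3a, was the region whose fall in rescue was closest to its rise. It lay at 9.75, 16.4 and 15.5 in WT, 69.4, 85.5 and 91.4 in KO and 1.09, 18.5 and 58.2 in rescue, changes of 2.07 ± 0.374 (adjusted p = 0.000573) and −1.96 ± 0.305 (adjusted p = 0.000203). WT lay within the rescue range, and KO above both.

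The other regions of this kind fell back in part. SLC2A9, the urate transporter of the proximal tubule, rose at exon 3 from 2.27 to 5.79 in WT to 62.0 to 85.1 in KO and stood at 48.9 to 61.3 in rescue. The rise was 2.37 ± 0.157 (adjusted p = 5.55e-08) and the change in rescue −0.400 ± 0.128 (adjusted p = 0.0310). RANBP17, an importin-like transport receptor, rose from 6.47 to 15.5 in WT to 71.7 to 94.9 in KO with 51.6 to 91.0 in rescue. LRCH1, in an exon of another transcript, rose from 13.4 to 31.6 to 79.7 to 95.3 with 59.4 to 84.7 in rescue. SYNE1, the nuclear envelope protein nesprin-1, at exon 141 of 146, rose from 26.4 to 72.6 to 92.7 to 99.4, with 73.7 to 98.3 in rescue. The rescue changes of SLC2A9 and SYNE1 (−0.654 ± 0.222, adjusted p = 0.0404) did not pass with 3 groups in the fit, at adjusted p = 0.0527 and 0.0785, nor in 8 and 9 of the 12 fits that each left out 1 KO or rescue library.

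**Figure D4:**
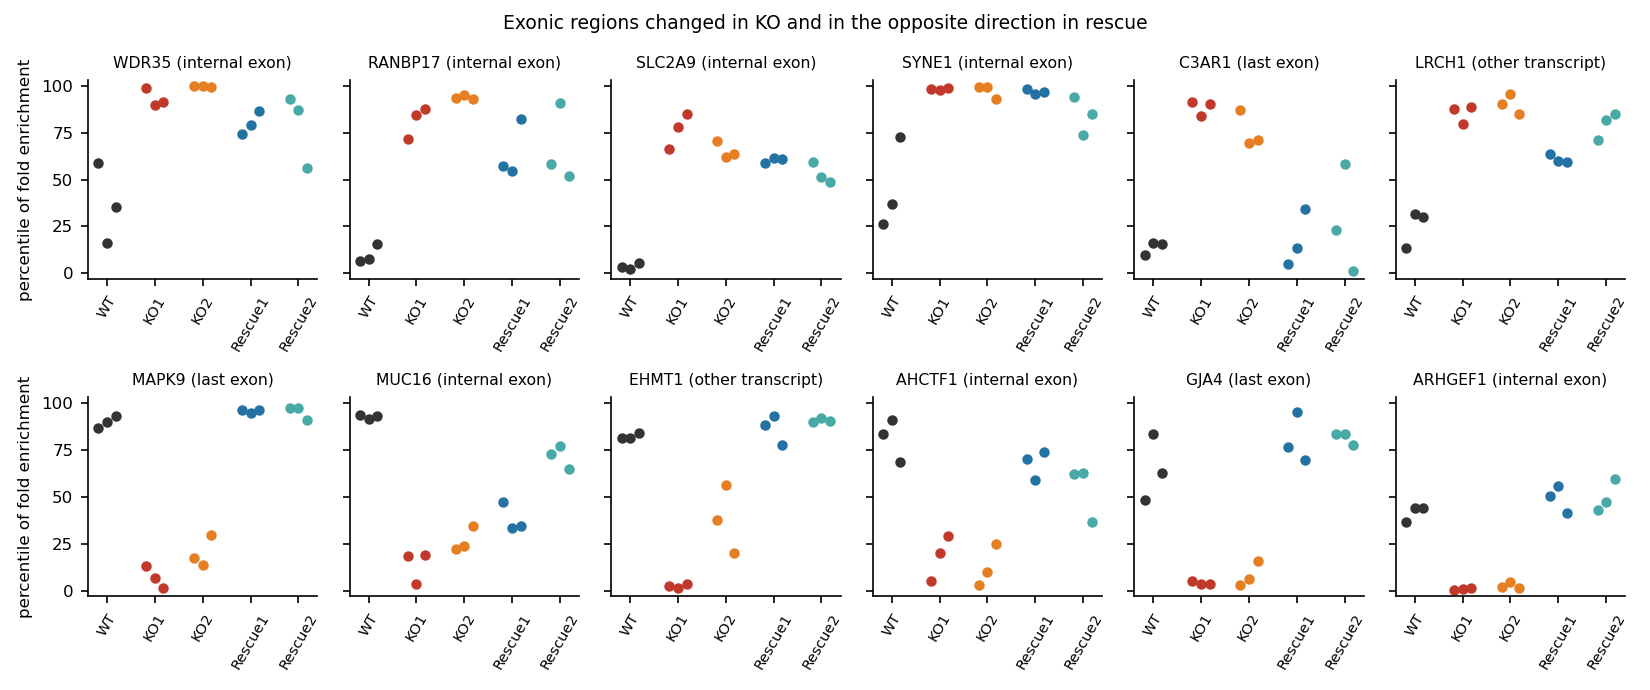
Percentile of summit fold enrichment in each of the 15 libraries for the 12 exonic regions with the largest changes in KO that went the opposite way in rescue. In the upper row KO lies above WT and the rescue medians lie between them; in the lower row KO lies at 56.2 or less, and the rescue median exceeds the WT median in MAPK9, EHMT1, GJA4 and ARHGEF1 but not in MUC16 and AHCTF1.

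Some of the largest rises did not fall back. A site in an other-transcript exon of DLG2, a synaptic scaffold, had percentiles of 9.75, 2.02 and 7.23 in WT, 81.5, 91.3 and 99.9 in KO and 69.1, 92.4 and 99.3 in rescue, with a change of 3.17 ± 0.319 in KO (adjusted p = 2.25e-06) and of −0.114 ± 0.260 in rescue (adjusted p = 0.790). The region at exon 4 of ELOVL2, an elongase of polyunsaturated fatty acids, had only 12.6% exonic bases. It lay at 13.4, 4.47 and 7.23 in WT, 84.8 to 95.3 in KO and 79.0 to 93.7 in rescue. Its change was 2.66 ± 0.181 in KO (adjusted p = 6.43e-08) and −0.0575 ± 0.147 in rescue (adjusted p = 0.814). KO and rescue overlapped in both genes and WT lay far below.

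Gene groups relevant to the line were read the same way, and their counts stand beside 4.77% gained and 2.49% lost among all regions and, for ranks, 12.4% higher and 12.4% lower in KO and 12.2% higher and 11.8% lower in rescue. None of the lists was tested, so whether any departs from these shares is not known. Of 48 genes of the mesenchymal list 22 had 41 exonic regions, 10 of them with a peak in all 15 libraries. Of these, 3 regions, in ZEB2, FN1 and TAGLN, rose in KO and 1, in SNAI1, fell. By all-or-none calls, 1 region was gained in KO, in exon 3 of ACTA2, smooth muscle actin, with no peak in WT, percentiles of 24.9 to 55.4 in KO and a peak in 2 of 6 rescue libraries, and none was lost. The other-transcript site of ZEB2, a repressor of epithelial genes, lay at 35.4, 40.7 and 42.2 in the WT libraries in ascending order, 54.4 to 79.5 in KO and 59.5 to 83.6 in rescue (change in KO 0.872 ± 0.169, adjusted p = 0.00105). The site of SNAI1, also such a repressor, lay at 16.7 to 32.7 in WT, 1.73 to 12.6 in KO and 6.03 to 12.7 in rescue (−0.972 ± 0.222, adjusted p = 0.00365). FN1, fibronectin, was at low ranks in every library, at 0.0162 to 0.109 in WT, 1.38 to 12.4 in KO and 4.12 to 20.2 in rescue.

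Of 40 epithelial genes 17 had 23 exonic regions and 6 regions were testable. Both regions of F11R, the junctional protein JAM-A, changed in KO, 1 up and 1 down. At ST14, the membrane protease matriptase, the KO clones lay on either side of WT, KO1 at 8.81 to 23.7 and KO2 at 80.01 to 89.8, beside 49.3 to 65.6 in WT (KO1 against KO2 −2.08 ± 0.206, adjusted p = 6.77e-05). Rescue lay above all of them at 93.3 to 98.1, and its change against both KO clones together (1.77 ± 0.146, adjusted p = 5.02e-07) draws mostly on KO1, whereas both rescue clones are tied to KO2. Of the ST14 region only 14.8% of the bases were exonic. DSP, desmoplakin, lay at 26.4 to 58.9 in WT and 22.1 to 63.7 in KO and fell to 3.92 to 30.0 in rescue (−0.858 ± 0.163, adjusted p = 0.00110). By all-or-none calls, PARD3, a polarity protein, gained a 3′ site in KO, and CLDN4, a tight junction claudin, lost one that had WT percentiles of only 0.650 to 1.41.

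Proximal tubule genes were the group with the largest share of constant regions, 12 of 21 in 11 of 36 genes. In KO 4 regions rose, among them 2 in CUBN, the endocytic receptor cubilin, and 1 in HNF4A, and 1 fell, in DPP4. The HNF4A site lay at 1.80 to 21.3 in WT and 20.2 to 80.04 in KO and fell to 6.10 to 36.4 in rescue (−0.783 ± 0.214, adjusted p = 0.0131). Exon sites of CUBN lay at 4.72 to 20.1 in WT, 10.8 to 43.1 in KO and 37.3 to 60.03 in rescue, and at 40.6 to 84.2, 86.0 to 97.0 and 87.4 to 99.001. CUBN had no promoter peak in any library. FBP1, a gluconeogenic enzyme, was at 19.3 to 72.7 in KO and rose to 62.6 to 85.8 in rescue (0.686 ± 0.182, adjusted p = 0.0112). None of the 21 was gained or lost by all-or-none calls.

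Among genes that write, read or erase H3K36 methylation, 14 of 27 had 29 exonic regions. Of the 7 testable, BRPF1 rose in KO, and ASH1L, DNMT3A and KDM2B fell in rescue. ASH1L, an H3K36 dimethylase, lay at 72.6 to 89.1 in WT, 70.8 to 90.4 in KO and 47.2 to 79.8 in rescue (−0.497 ± 0.162 against KO, adjusted p = 0.0334). The DNA methyltransferase DNMT3A lay at 72.0 to 86.0, 53.0 to 90.5 and 32.6 to 64.2 (−0.771 ± 0.168, adjusted p = 0.00309). MSH6, a mismatch repair protein whose PWWP domain binds H3K36me3, lost an other-transcript site in KO, which 5 of 6 rescue libraries had. This site lay upstream of the canonical transcript, at WT percentiles of 7.23 to 38.8. Integrin beta 1 (ITGB1), from another list, was at 87.0 to 96.8 in WT, 54.4 to 68.5 in KO1, 92.1 to 94.9 in KO2 and 97.4 to 99.5 in rescue. KO2 lay within the WT range and KO1 below it (KO1 against KO2 −1.25 ± 0.213, adjusted p = 0.00433), so the pooled change in rescue (1.35 ± 0.151, adjusted p = 9.26e-06) draws mostly on KO1.

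Larger families were mixed. Solute carriers had 154 regions in 111 of 371 genes, with 8 gained (5.19%) and 4 lost (2.60%) in KO, close to the shares of all regions, and of 60 testable regions 5 rose and 10 fell in KO and 11 rose and 8 fell in rescue. C2H2 zinc finger genes had 130 regions, with 8 gained and 2 lost, and 7 of 41 rose and 7 fell. Collagens had 26 regions with no gain or loss, and 2 of 6 rose in KO (COL4A4 and COL8A1) and 1 fell (COL6A6). In rescue 3 of the 6 were lower (COL8A1, COL15A1 and COL2A1) and none was higher. At COL2A1, KO1 lay above KO2 (KO1 against KO2 0.987 ± 0.209, limma, adjusted p = 0.0166). KO2, to which both rescue clones are tied, lay at 1.19 to 7.63 and rescue at 1.23 to 9.26, which overlapped. The lower rank of COL2A1 in rescue against both KO clones together thus draws mostly on KO1. COL8A1 rose from 22.3 to 34.1 in WT to 78.5 to 94.0 in KO and fell to 36.8 to 58.2 in rescue (1.72 ± 0.152 and −1.19 ± 0.124, adjusted p = 6.48e-07 and 4.71e-06). In KO, integrins and laminins lost 1 of 40 regions, HOX genes none of 13, and mucins and keratins 1 of 16. SR and hnRNP factors lost none of 13, clustered protocadherins none of 4, and olfactory receptors gained 2 of 31. In rescue, integrins and laminins gained 3 of the 40 (7.5%) and lost 1 (2.5%), beside 0.906% and 1.23% of all regions. Olfactory receptors lost 2 of 31 (6.45%) in rescue.

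The sequence around the midpoints was searched for short motifs. Within 100 bp on either side, on both strands, the AP-1 letters TGANTCA were found in 25.7% of exonic regions and 27.4% of all regions, in 30.7% of gained and 13.95% of lost exonic regions. Among all regions gained or lost, these shares were 36.2% and 17.9%. The E-box CAGGTG, bound by SNAI and ZEB proteins, was found in 19.1% of exonic regions (16.3% of all), in 7.5% of the gained and 29.7% of the lost, beside 9.30% and 27.9% of all regions gained or lost. The CTCF core letters were found in 11.1% of exonic and 7.82% of all regions. The FOX letters TGTTTAC were found in 6.59% of gained and 1.74% of lost exonic regions (6.48% and 2.07% of all regions gained or lost), and the HNF1 letters in 0.455% and 2.91% (0.506% and 2.45%). For the AP-1, E-box, FOX and HNF1 letters, gained and lost shares over all regions differed in the same direction as in exons. Overlaps between motifs were not removed. A match is a string of letters and not a bound site. The median GC content was 49.3% in exonic and 47.8% in all regions, and SP/KLF letters GGGCGG were found in 8.48% and 8.60%.

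TERT stood out among genes with many exonic regions. All 9 of its regions lay in coding sequence, 8 of them in internal exons, with a median of 84.5% exonic bases. Peaks covered 52.7%, 31.6% and 22.9% of its 2042 coding bases (more than 1 kb from starts) in WT, 55.5% to 80.6% in KO and 16.3% to 36.3% in rescue. KO exceeded both other groups without overlap, and the mean over 15 libraries of 42.2% ranked 6 of 6052 genes with at least 5 coding exons and 1000 coding bases away from starts, for which the median was 0. Of intron bases 0.128% were covered on average. The difference of rescue from KO, −38.7 points, was the lowest of the 6052 genes. The cells carry an hTERT transgene, and peaks from a spliced copy and from the native exons cannot be told apart in these lists.

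**Figure D5:**
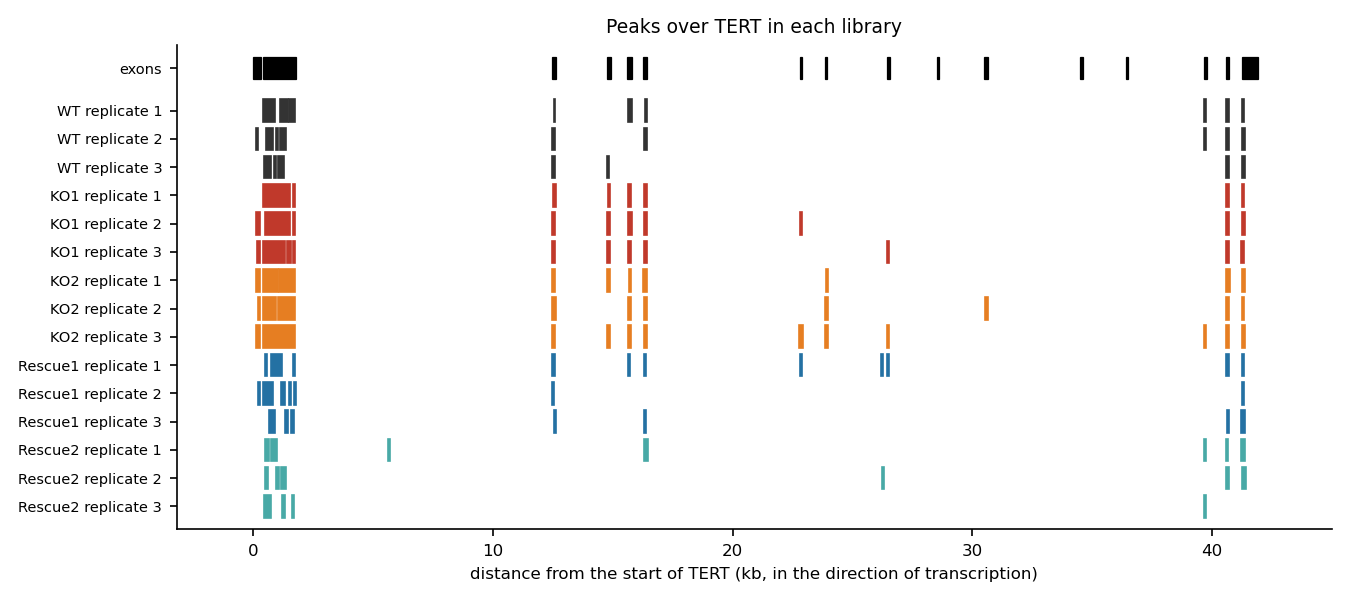
Peaks of each library over TERT, plotted by distance from the start of the gene, with the exons in black on top. The 6 KO libraries have peaks over 7 to 11 of the 15 exons after the first and the rescue libraries over 2 to 8, and peaks follow the exons.

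SETD2 itself had 4 exonic regions. Exon 21 was occupied in all 15 libraries with percentiles of 70.0 to 79.9 in WT, 75.3 to 91.5 in KO and 83.9 to 91.8 in rescue. Exon 8 (chr3:47101427-47101659) was occupied in all but 1 rescue library. The region at exon 15, which extends past the exon, had a peak in 1 WT library and all 12 others. Exon 15 itself was touched by a peak in no WT library and in all 12 others. Exon 20 had a weak peak in 4 of 6 rescue libraries, at 1.41 to 7.79, and in no WT or KO library. Coverage was read over the 2497 SETD2 coding bases more than 1 kb from starts, and not over the whole coding sequence. Peaks covered 14.8%, 12.3% and 13.7% of these bases in WT, 15.9% to 20.1% in KO and 23.6% to 34.9% in rescue. These 3 ranges did not overlap, whereas intron coverage was 1.46% to 1.72%, 1.58% to 2.46% and 1.91% to 2.50%. Of the 4367 bp of exon 3, the guide target, 2.02% lay under peaks on average. Exons 4, 9 and 12 were among those with no peak in any library. The rescue clones carry a spliced SETD2 copy, which cannot be told apart from the native exons. The difference of rescue from KO, 9.90 points, ranked 10 of the 6052 genes, and DLL3, with 30.6% in KO and 53.2% in rescue, ranked first.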

How the data were processed

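ATAC-seq of RPTEC cells was analysed from 15 MACS2 peak lists, 1 per library, in hg38. Per the labels, the submitters' processing notes name BWA 0.7.17, MACS2 2.2.7.1 and DiffBind 2.14.0, and the study's methods name another BWA version. Use of a control track, duplicate removal and excluded regions are not given in the sources used here. Each line of the deposited lists gives a peak's score, its summit fold enrichment (a ratio), its −log10 p and −log10 q, the latter at least 1.30, and its summit position. Replicates were not pooled by the authors. Fold enrichment is relative to the local background of the same library, and it was used only as a within-library rank. List length can depend on depth, which is unknown. All 99 contigs of the lists exist in the reference and all peaks lie within them.

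Merging, the exonic rule and the all-or-none calls are described with the results. Exons were read on the Ensembl canonical transcript, and a region in exons of more than 1 gene (175 regions) was assigned to 1 of them. Fisher's exact test was two-sided. Rank changes were fitted with limma 3.58.1 in R 4.3.3 on 5 groups, with moderated variances and an intensity trend, and p-values were adjusted by the Benjamini-Hochberg method over 102091 regions. Both procedures were tested on simulated data. Sequences and exons came from hg38 and GENCODE v44. Motifs were searched on both strands within 100 bp of the midpoint. Motifs of POU, ETS, NRF1, TEAD, C/EBP and NF-kB factors were searched too and are shown only where a printed window holds one (C/EBP).

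The members and lists were chosen with earlier results of these data known, and 2 list patterns were corrected after matching. Regions were named as the 6 with the highest mean percentile in each of 4 sets of calls and among regions with a peak in 15 libraries, the 6 with the largest change in KO in each direction that rescue reversed, the 4 largest changes in each direction whatever rescue did, and the 10 genes with most regions (with ties). TERT windows, SETD2 and members of gene lists were described outside that rule, chosen after their values were seen. The alternatives were stricter peaks, equal list lengths, other overlap, consensus, distance and exon rules, single clones, left-out libraries and other rankings. Some genes of the lists are not reported here.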

Additional observations from a re-analysis of the deposited data

Results flagged for a closer look

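The exonic share of regions with a peak moved in opposite directions in the rescue clones. Against the KO mean of 2.82%, it was higher by 0.0512 points in Rescue1 (all 3 libraries above, by 0.0393 to 0.0652) and differed by −0.0466 points in Rescue2 (all 3 below, by −0.0546 to −0.0415). This difference between the clones was not tested.

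Clones of one genotype also differed in rank. With limma, 20 exonic regions were higher and 51 lower in KO1 than in KO2, beside 0.81% and 2.0% of all regions, and 24 were higher and 33 lower in Rescue1 than in Rescue2, beside 0.617% and 1.64%. Of the regions named for their changes, the EHMT1 site differed between KO1 and KO2 by −1.66 ± 0.226 normal scores (adjusted p = 0.000793) and the MUC16 site between Rescue1 and Rescue2 by −0.874 ± 0.222 (adjusted p = 0.0474). A library of one clone is no independent clone, and these counts cover 2 clones per genotype.

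Single libraries stood apart from the other 5 of their group in 4 of 46 groups of 6 values, or 8.70%, where chance flags about 1 in 20. KO2 replicate 3 lay at a percentile of 92.7 for SYNE1, under the next value of 97.9, and at 15.8 for GJA4, above the next of 6.27. Rescue1 replicate 3 lay at 77.5 for EHMT1, under the next of 88.3. KO2 replicate 2 had 15.9% of the 2497 SETD2 coding bases away from starts under peaks, under the next KO value of 18.6%.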

How the results depend on the processing

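Gained regions numbered 290 with the 150000 strongest peaks per list and 775 with KO2 alone, and lost regions 341 with KO1 alone. Under a majority rule (a peak in at least 2 in 3 libraries of one group and at most 1 in 3 of the other), the counts were 1153 gained and 692 lost in KO, 634 gained and 541 lost in rescue, 389 gained then lost, 232 lost then gained, 662 gained and kept, and 390 lost and absent. Rescue1 alone gave 162 gained, 195 lost, 100 gained then lost and 30 lost then gained, and Rescue2 alone gave 177 gained and 34 lost then gained. With single clones and under the majority rule fewer libraries must concur, so those counts are higher by construction. The KO minus WT difference in exonic regions with a peak was 2.97 points with 150000 peaks, and that in the exonic share of regions with a peak 0.0834, 0.195 with 50% overlap and 0.104 beyond 2 kb. Within 50 bp of the midpoint, exonic regions exceeded all regions by 1.45 points for the E-box and 2.47 for CTCF, against 2.82 and 3.24 within 100 bp.

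Leaving out each library in turn gave 457 to 516 gained and 179 to 261 lost regions in KO (261 without WT replicate 2), 83 to 110 gained and 91 to 104 lost in rescue, 53 to 64 gained then lost, 19 to 28 lost then gained, 214 to 253 gained and kept, and 72 to 110 lost and absent (110 without WT replicate 2 and 109 without WT replicate 3). Higher ranks numbered 276 to 343 in KO and 368 to 437 in rescue, and lower ranks 320 to 450 and 212 to 275. By exon position, an alternative chosen after seeing the data, 34 internal-exon regions were lower in rescue without KO2 replicate 2, against 52 with all libraries.

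The replicate numbers did not pair the libraries: deviations from group means of same-numbered libraries correlated at −0.115 to 0.0914 over 30 pairs, and 7 of 15 libraries correlated best with their own number. With the replicate block, 336 regions were higher and 436 lower in KO, and 431 and 258 in rescue. Of the named regions, only SYNE1 lost a call with the block (rescue against KO, adjusted p = 0.0524).

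Of 632 values of named rank changes under the alternatives, 607 kept direction and call and 25 lost the call, all in rescue against KO (SLC2A9, SYNE1, RANBP17 with Rescue2 alone and LRCH1 with Rescue2 alone), and none changed sign. Of 72 values of named all-or-none calls 8 were no longer all-or-none. Sequencing depth is unknown, so a missing peak in a shorter list may be a region under the threshold.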

Other observations

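Other genes shared with TERT a high cover of coding exons and a low cover of introns in all groups. TRAF3IP2, an adaptor of interleukin-17 signalling, had 61.8% of 1345 coding bases and 2.87% of intron bases under peaks on average, with 60.2% in WT, 65.7% in KO and 58.7% in rescue. ZNF25, a zinc finger gene, had 55.4% and 0.109%, and PIF1, a DNA helicase, 48.2% and 1.41%. GHR, the growth hormone receptor, had 41.2% and 0.744%, and BEST1, the chloride channel bestrophin, 41.4% and 0.435%. PRR36 was the exception among the 10 highest, with 46.0% of coding and 80.4% of intron bases. Its intron share rests on only 16 bases. These genes were ranked after the values were seen, and no test was made.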
